A study of Mus musculus with 16 samples.

Results

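RNA from whole testis of Emi2 knockout and wild-type C57BL/6 mice was compared at P30, postnatal day 30. The 4 arrays were chosen by their titles, 2 labelled as knockout and 2 as wild type, out of 16 arrays that cover both genotypes at P15, P21, P30 and P60. Each array was an Illumina bead array, on which a probe is a short oligonucleotide whose brightness follows the amount of its transcript. All groups shared the strain and the tissue, and the labels name no other allele or treatment. How the knockout was made, and whether each array is 1 animal, is not given in the sources used here. The p-values therefore reflect array-to-array spread alone, and that spread may be technical. One protocol line gives another day than the titles for the youngest age, and the titles were followed.

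Emi2, whose gene symbol is Fbxo43, is an F-box protein that keeps the anaphase-promoting complex inactive. This ubiquitin ligase marks cyclin B and securin for destruction at the exit from a division. It is best known from vertebrate eggs, which it holds in the second meiotic metaphase until fertilisation. In the testis of a young mouse the germ cells mature as a first wave. Spermatogonia enter meiosis as spermatocytes, the meiotic divisions give round spermatids, and these elongate into sperm. In a whole organ, fewer cells of a type and less RNA per cell cannot be told apart.

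The probes are given by identifier as row labels, because the gene names of the probe table did not go with the levels. Ribosomal proteins are abundant in all cells, yet 39 of the 71 probes with such a name had signal above background on both P30 wild-type arrays (54.9%, 95% Clopper-Pearson limits of 42.7% and 66.8%, counting error only). Olfactory receptor names reached 49.7% (574 of 1154) and the whole set of regular probes 49.6%. Lists of genes of the testis and of the Emi2 pathway, 104 tested probes together, held 8 lower and 17 higher probes at P30. That is 24.0%, against 24.9% of all tested probes. By list, 1 probe was lower and 4 higher of 21 named for the anaphase-promoting complex and its regulators, and 1 and 5 of 24 for meiotic spermatocytes. For spermatids 3 were lower and 4 higher of 24, for spermatogonia 2 and 1 of 5, and for somatic cells of the testis 1 and 3 of 30. By detection on both P30 wild-type arrays the list for meiotic spermatocytes stood apart, with 22 of 32 probes (68.8%) against 49.6% of all regular probes. Its median log2 level there was 8.33, against 7.42. The list for somatic cells reached 54.8%. Those for spermatids, spermatogonia and the anaphase-promoting complex lay below 49.6%, and all lists together reached 49.4%. As a set the names therefore check neither the tissue nor the genotype, and no gene is named below as changed.

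The targeted gene falls under the same limit. ILMN_2734262, the probe named Fbxo43, had log2 levels of 10.33 and 10.45 in wild type and of 8.95 and 9.27 in knockout at P30. Both knockout arrays lay below both wild-type arrays, by a log2 difference of -1.28 (SE 0.20, limma adjusted p = 0.000552). At P15 its group means were 11.10 in wild type and 11.09 in knockout, and at P21 they were 9.58 and 9.56. At P60 they were 10.53 and 9.57 (log2 difference -0.96, SE 0.20, limma adjusted p = 0.00239). The probe was detected on both knockout arrays at every age. ILMN_2749583, the probe named for the paralog Fbxo5, was detected on 0 of 4 P30 arrays.

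Across the 4 arrays, between 13569 and 13765 of 25689 regular probes were detected, and the genotypes overlapped in this number (13577 and 13747 in wild type; exact permutation test, two-sided, p = 1, smallest possible 0.333). Of the regular probes, 17355 were detected on at least 2 of the 16 arrays and were tested. The root-mean-square (RMS) log2 difference between arrays was 0.343 within wild type and 0.289 within knockout. Between the genotypes it was 0.743 to 0.93, and the largest value in any replicate pair of the series was 0.357. By this measure, to which large differences add most, the P30 genotype difference was larger than the spread between replicates. Between the genotypes 1300 to 1969 tested probes differed by a log2 difference over 1, against 335 within wild type and 142 within knockout.

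At P30 a set of probes bright in wild type had far less signal in the knockout testis. Many other probes were higher there, mostly by less than 2-fold in the deposited values. A fall or rise at P30 means a knockout level below or above wild type at that age, and not a change over time. By limma 1806 probes (10.4% of those tested) were lower in knockout and 2511 (14.5%) were higher. The median log2 difference was -1.27 among the lower probes, 0.62 among the higher and 0.117 over all tested probes. In all called probes the genotypes did not overlap. Both knockout arrays lay below both wild-type arrays in 19.4% of all tested probes and above them in 44.3%. Of the lower probes 1109 (6.39% of those tested) differed by at least 2-fold, 572 by at least 4-fold, 331 by at least 8-fold and 162 by at least 16-fold. Of the higher probes 257 (1.48% of those tested) differed by at least 2-fold, 12 by at least 4-fold, 1 by at least 8-fold and 0 by at least 16-fold. Deposited levels carry no background correction, so these folds understate the change of dim probes. With each difference taken relative to the median of 0.117, 2193 probes were lower and 1425 higher. Without P30 wild type replicate 2 the counts were 1319 and 1033. Which direction held more probes therefore was not settled. At 2-fold falls outnumbered rises in both (1225 against 165, and 924 against 241). With background corrected from the detection p-values or the control rows, 1585 and 1594 probes fell by at least 2-fold and 998 and 1000 rose, so the size of that excess depended on the background.

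**Figure D1:**
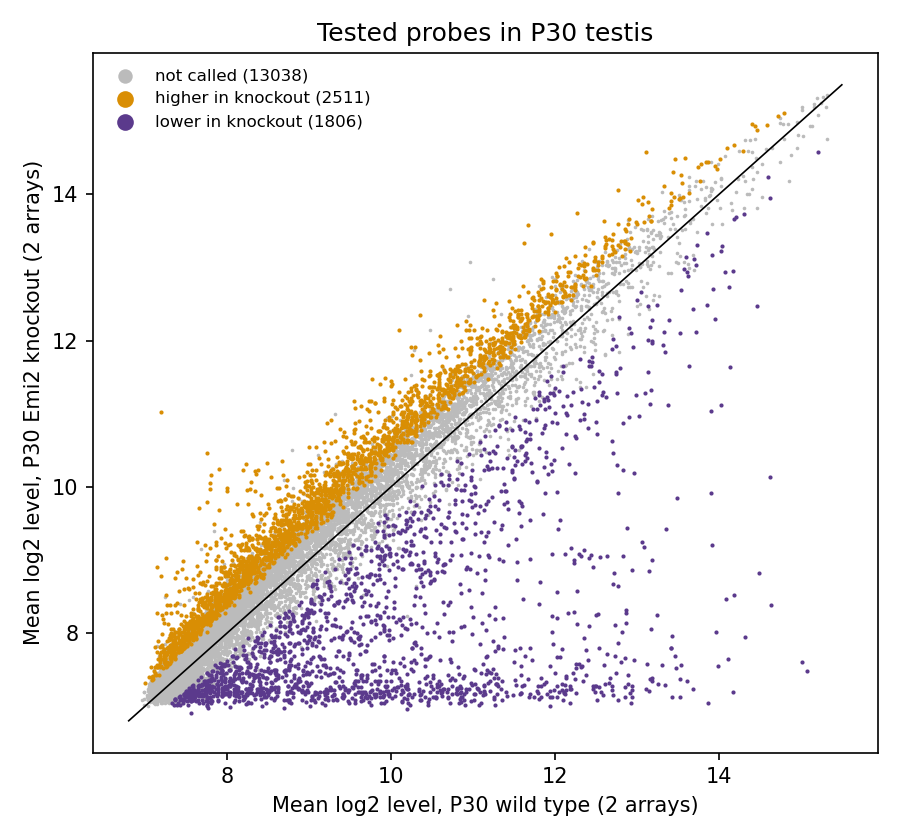
Mean log2 level of each of 17355 tested probes in P30 wild type (horizontal axis, 2 arrays) and P30 Emi2 knockout (vertical axis, 2 arrays), with the diagonal of equal levels. The 1806 lower probes reach far below the diagonal, many of them down to the floor of the array near a log2 level of 7.4, and the 2511 higher probes lie in a narrow band above it.

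The deepest falls in the fit were those of ILMN_2703566 and ILMN_2657376, whose order turned without P30 Emi2 knockout replicate 1 (-7.34 and -7.41). With background corrected from the detection p-values ILMN_3087593 was as deep as either (-9.48, against -9.47 and -8.97). ILMN_2703566 had signals of 31495.7 and 37538.8 in wild type and 187.3 and 212.2 in knockout, or log2 levels of 15.09 and 15.04 against 7.23 and 7.73. It stood near the top of the scale in both wild-type arrays and was detected on 1 of 2 knockout arrays (log2 difference -7.59, SE 0.49, limma adjusted p = 3.02e-07). ILMN_2657376 had signals of 29591.2 and 37858.4 in wild type and 237.9 and 196.9 in knockout. It stayed detected on both knockout arrays, at a level 171-fold lower (log2 difference -7.42, SE 0.30, limma adjusted p = 4.88e-09).

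ILMN_3087593 had log2 levels of 13.76 and 14.58 in wild type and 7.17 and 7.20 in knockout, where it was not well above background. It was at least 112-fold lower in knockout, a bound set by the dimmest detected probe of each array (limma adjusted p = 1.34e-09). ILMN_1222251 had 13.34 and 14.39 in wild type and 6.99 and 7.10 in knockout, a fall of at least 90.7-fold (limma adjusted p = 1.28e-08). In both probes the second wild-type array was clearly the higher one, and both knockout arrays were at the floor. ILMN_2677792, ILMN_1218914 and ILMN_3163087 were also not well above background on either knockout array, at least 79.6-fold, 71.6-fold and 66.9-fold lower. ILMN_1213855, ILMN_2706964 and ILMN_3110679 were detected on both knockout arrays and were 87.9-fold, 86.6-fold and 82.8-fold lower. Among probes detected on all 4 arrays, ILMN_2775300 came next, with wild-type log2 levels of 14.25 and 15.01 and knockout levels of 8.32 and 8.45. All 11 of these probes had P15 group means between 6.99 and 7.61 in both genotypes, and none had a P15 genotype difference over 0.17 in size.

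The rises were smaller. ILMN_1212921 had signals of 141.8 and 169.3 in wild type, where it was not detected, and 3208.8 and 1921.3 in knockout. Its log2 levels of 7.21 and 7.18 against 11.16 and 10.89 made it at least 12.6-fold higher (limma adjusted p = 2.19e-09). No other called probe rose by 8-fold or more in the limma fit. ILMN_3036678 had log2 levels of 7.80 and 7.71 in wild type and 10.57 and 10.34 in knockout (log2 difference 2.70, SE 0.17, limma adjusted p = 2.11e-07). ILMN_1243711 had 7.92 and 7.68 in wild type and 10.26 and 10.07 in knockout (log2 difference 2.37, SE 0.19, limma adjusted p = 2.16e-06). ILMN_2812824, ILMN_2740869, ILMN_2812960, ILMN_2896582, ILMN_2836924 and ILMN_2943722 were higher by log2 differences of 2.25, 2.18, 2.09, 2.05, 2.04 and 2.03. In each of them both knockout arrays lay above both wild-type arrays.

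ILMN_3139952 was less certain. It had 7.71 and 8.09 in wild type and 9.41 and 11.10 in knockout, so the knockout arrays were further apart than the dimmer of them was from wild type (log2 difference 2.36, SE 0.51, limma adjusted p = 0.00565). Without P30 Emi2 knockout replicate 2 the difference was 1.51 (limma adjusted p = 0.0523), and with only the 4 P30 arrays in the model the limma adjusted p was 0.0605.

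**Figure D2:**
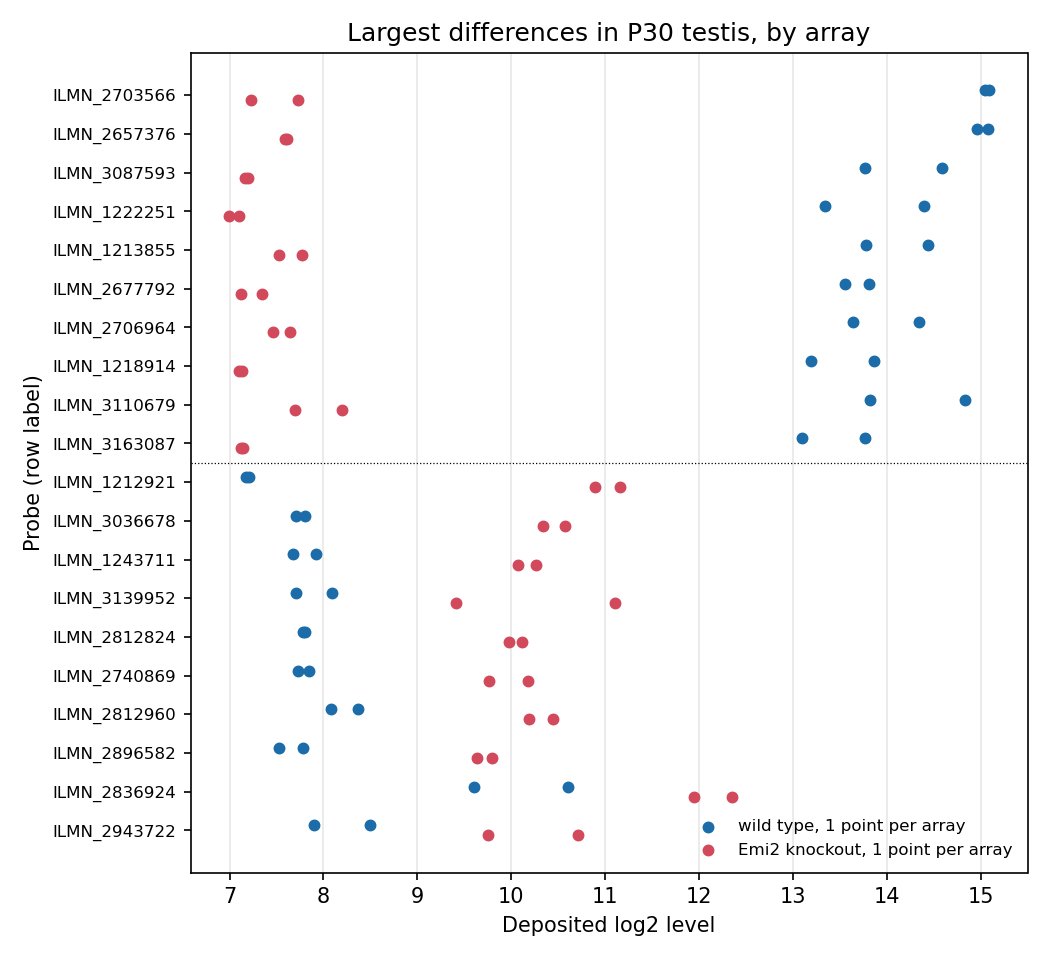
Deposited log2 level of the 10 probes with the largest falls (above the dotted line) and the 10 with the largest rises (below it) on each P30 array, with 1 point per array. Genotypes do not overlap in any of these probes, and the wild-type points of the falling probes lie between 13.09 and 15.09 while the knockout points lie between 6.99 and 8.20.

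Bright probes could also rise. ILMN_2506528 had signals of 10350.0 and 9404.5 in wild type and 32714.1 and 26509.5 in knockout, a log2 difference of 1.46 (SE 0.21, limma adjusted p = 0.000339). ILMN_2620475 and ILMN_2756615, the next brightest of the 2-fold rises, were higher by 1.03 (SE 0.19) and 1.29 (SE 0.21). The 3 brightest probes chosen for a difference under 0.1 in size were ILMN_2894900, ILMN_1254421 and ILMN_1219309, with group means between 15.24 and 15.36 in both genotypes. They lay at the top of the scale, where ILMN_1254421 and ILMN_2894900 gave the highest signals of the 2 knockout arrays (47772.0 and 42561.0), and where quantile normalization fixes the levels. Their equal levels are a description of that choice and are no evidence of equal amounts.

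Detection gave a second view of the same arrays, without the size of a difference. On both wild-type and on no knockout array 739 regular probes were detected (2.88%), and 462 showed the reverse (1.8%). Of the 739 probes 594 were called lower, against 10.4% of all tested probes. Of the 462 probes 82 were called higher, close to the 14.5% of all tested probes. Detection and calls used the same signals, which favours the direction of each call. The median wild-type level of the 739 was 8.37 and the highest 14.17, whereas the median knockout level of the 462 was 7.49 and the highest 11.02. Most probes detected in knockout only were thus barely above background. In P60 arrays, which share nothing with P30, 548 of the 739 probes were again detected in wild type only, where 845 of all 25689 regular probes were. Of the 462 probes 154 were again detected in knockout only at P60, where 788 of all regular probes were. At P15 542 of the 739 probes were detected on no wild-type array and 531 on no knockout array. Of the 462 probes 259 were detected on both P15 wild-type arrays, a smaller share than the 13019 of all 17355 tested probes.

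The probes called at P30 followed opposite courses on the arrays of the other ages, which the P30 test does not use for its group means. The spread behind every test was estimated from all arrays, which favours overlap between calls. The 1109 probes lower by at least 2-fold had a median level of 7.34 in wild type and 7.35 in knockout at P15. In wild type this median was 8.47 at P21, 10.38 at P30 and 10.87 at P60. In knockout it was 7.44, 7.52 and 7.54 at those ages. From P15 to P60, 1085 of the 1109 (97.8%) rose in wild type, against 22.9% of all tested probes, and 5 fell. In knockout 217 (19.6%) rose over the same ages, against 17.8% of all tested probes, and 122 of the 1109 fell, against 26.9%. Between P15 and P21, 610 (55.0%) had already risen in wild type, against 15.4% of all tested probes, and 38 (3.43%) had fallen, against 25.8%. The detection filter favours such a course, as 321 of the 1109 probes reached 2 detections only with the help of the P21, P30 and P60 wild-type arrays.

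Not all of these probes were silent in knockout. At P30, 398 of the 1109 (35.9%) were detected on no knockout array and 614 on both. At P15 the numbers were 498 (44.9%) on no knockout array and 534 on both. Of all tested probes 16.7% were detected on no knockout array at P30 and 14.1% at P15. These are counts of probes on 2 arrays with no test.

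The 2511 higher probes were bright already at P15, with a median level of 9.68 in wild type and 9.67 in knockout. The wild-type median was 9.39 at P21, 9.03 at P30 and 8.92 at P60, while the knockout median was 9.70, 9.75 and 9.72. In wild type 1624 of them (64.7%) fell from P15 to P60, against 39.0% of all tested probes, and 206 (8.2%) rose, against 22.9%. In knockout 653 (26.0%) fell over these ages, close to the 26.9% of all tested probes, and 772 (30.7%) rose, against 17.8%.

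The 257 probes higher by at least 2-fold more often rose over time in knockout. From P15 to P60, 163 of them (63.4%) rose in knockout, against 17.8% of all tested probes, and 14 (5.45%) fell. By P21, 127 (49.4%) had risen in knockout, against 13.4% of all tested probes, and 19 (7.39%) had fallen, against 19.3%. In wild type 132 (51.4%) fell from P15 to P60, against 39.0% of all tested probes, and 40 (15.6%) rose, against 22.9%. By probe, 79 rose in knockout with no call in wild type (30.7%, against 5.74% of all tested probes) and 74 fell in wild type with no call in knockout (28.8%, against 14.7%). Another 44 did both (17.1%, against 0.853%), and 40 rose in both genotypes (15.6%, against 11.2%). ILMN_1212921 belonged to the first kind, with P15 means of 7.12 in wild type and 7.13 in knockout and P60 means of 7.32 and 11.11. ILMN_2812824 did both, as its wild-type mean went from 8.89 at P15 to 7.72 at P60 and its knockout mean from 8.82 to 10.19. ILMN_2740869 rose in both, from 7.12 to 8.25 in wild type and from 7.05 to 10.14 in knockout. ILMN_2506528 fell in wild type from 14.38 to 12.53, while its knockout means were 14.36 and 14.58 (limma adjusted p = 0.444 in knockout).

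**Figure D3:**
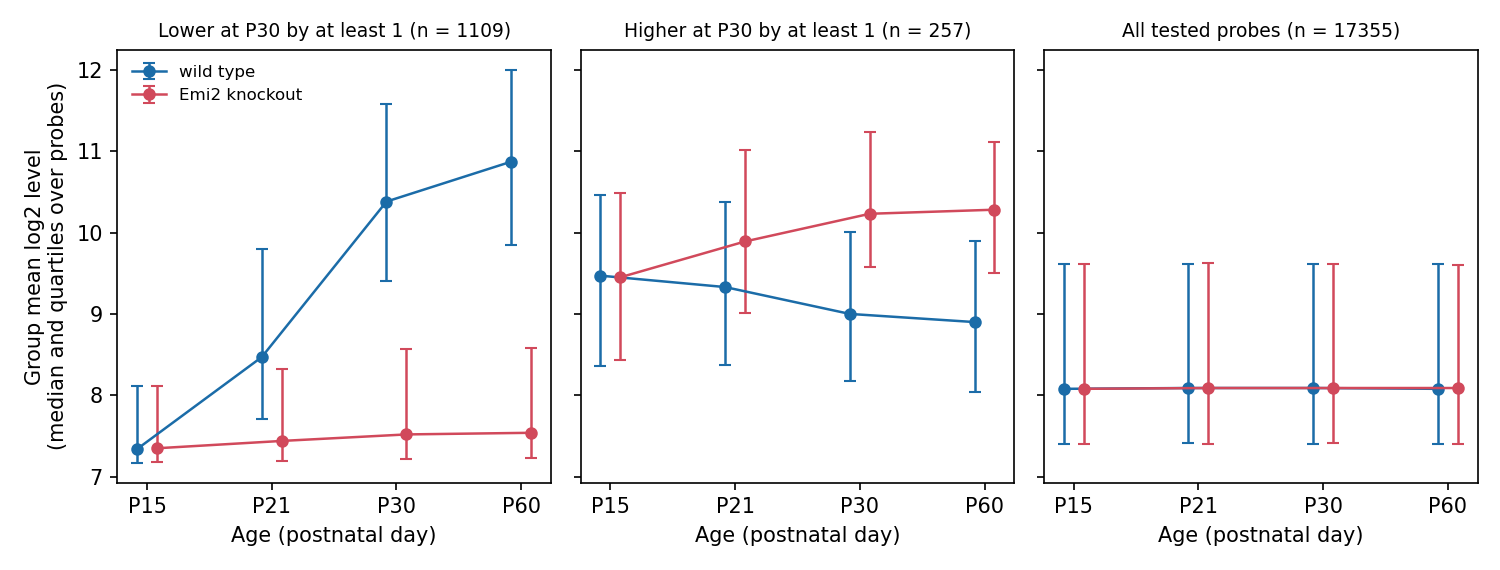
Median over probes of the group mean log2 level at each age, with bars from the lower to the upper quartile of the probes, for 1109 probes lower at P30 by at least 1 (log2), 257 higher by at least 1, and all 17355 tested probes. P30 chose the lists, so the gap at P30 is a description. At P15 the genotypes coincide, and at P60 the medians are 10.87 and 7.54 for the lower list and 8.90 and 10.28 for the higher list.

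Probes were also sorted by a level measured on other arrays. The tested probes were cut into 10 bins of equal size. In the bin brightest in wild type at P60, 485 of 1736 (27.9%) were lower at P30 by at least 2-fold, and 309 (17.8%) were higher by any size. In the dimmest 4 bins 0 were lower by at least 2-fold, as such a fall needs a level to fall from. In the bin brightest in wild type at P15, 21 (1.21%) were lower by at least 2-fold and 539 (31.0%) were higher. In the bin dimmest at P15, 406 (23.4%) were lower by at least 2-fold and 46 (2.65%) were higher. Probes that dim at P15 entered the test only if other arrays detected them. Over all probes of a bin, called or not, the median log2 difference at P30 climbed from -0.1 in the bin dimmest at P15 to 0.4 in the brightest. The share of rises thus went with a shift of whole bins, whose cause was not tested.

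**Figure D4:**
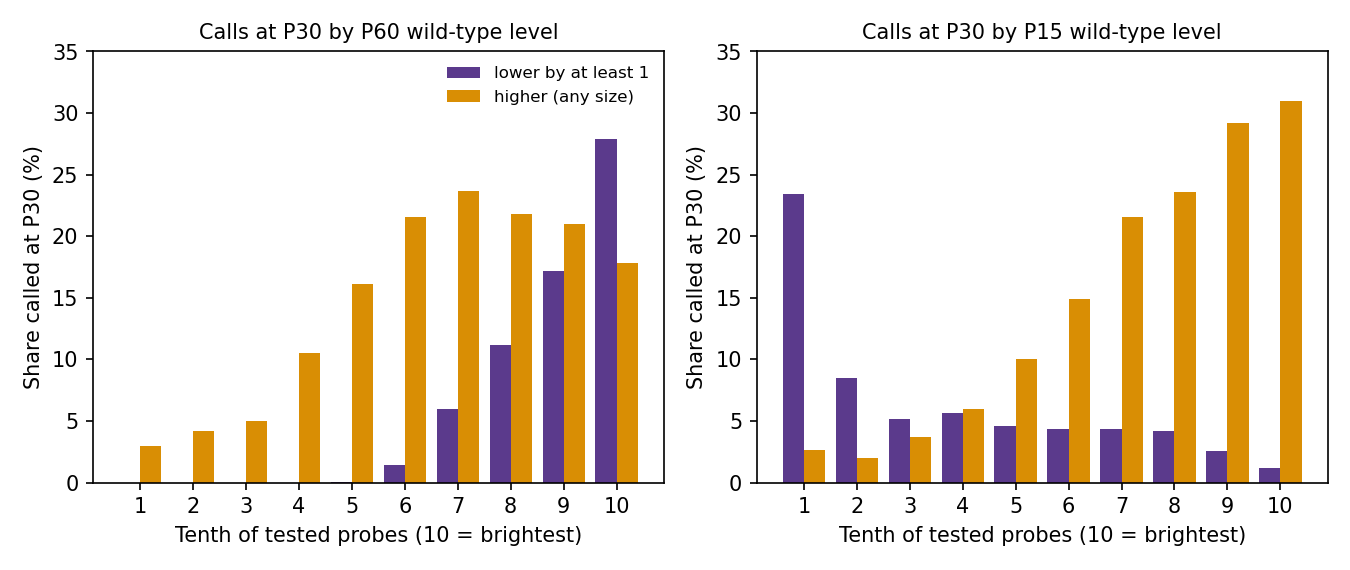
Share of tested probes called lower at P30 by at least 1 (log2) and called higher at P30 by any size, in 10 bins by the wild-type level at P60 (left) and at P15 (right), 1735 or 1736 probes per bin. Large falls at P30 gather in the probes brightest at P60 (27.9%) and dimmest at P15 (23.4%), and rises in the probes brightest at P15 (31.0%). The median difference over all probes of a bin also climbs with the P15 level, from -0.1 to 0.4.

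The P30 difference was set beside those of the other ages. At P21 630 probes were lower (3.63%) and 238 higher (1.37%), and at P60 2513 were lower (14.5%) and 4731 higher (27.3%). Of the 1109 probes lower by at least 2-fold at P30, 486 (43.8%) were also lower at P21 and 1099 (99.1%) at P60. The 486 had a median log2 difference of -1.45 at P21, -2.76 at P30 and -3.10 at P60. The other 623 had -0.29, -1.85 and -2.38. Of the 257 probes higher by at least 2-fold, 84 (32.7%) were higher at P21 and 248 (96.5%) at P60.

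A direct test of the change from P21 to P30 found a more negative difference for 712 probes (4.1% of those tested) and a more positive one for 110 (0.634%). ILMN_1228907, ILMN_1222337 and ILMN_2643786 changed most, by -5.58, -5.51 and -5.36 on the log2 scale. Their P21 genotype differences were -0.23, -0.22 and -0.20, and none of the 3 passed the test at that age. At P30 ILMN_1228907 had log2 levels of 12.28 and 13.60 in wild type and 7.19 and 7.07 in knockout, a fall of at least 47.7-fold (limma adjusted p = 3.55e-08). At P21 their wild-type means were near the floor, at 7.31, 7.36 and 7.29, and each was detected on 1 of 2 wild-type arrays.

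In the positive direction, ILMN_2834777 and ILMN_2606088 crossed over. ILMN_2834777 had a genotype difference of -2.31 at P21 (limma adjusted p = 5.49e-06) and 0.87 at P30 (limma adjusted p = 0.00322), a change of 3.18 (limma adjusted p = 1.29e-05). Its wild-type means were 7.22, 10.54, 10.19 and 11.09 from P15 to P60, and its knockout means 7.41, 8.23, 11.06 and 11.53. ILMN_2606088 went from -1.88 at P21 to 1.05 at P30 and 1.03 at P60. Both probes were thus behind wild type at P21 and above it at P30, and at P60 ILMN_2834777 no longer passed the test (log2 difference 0.44, limma adjusted p = 0.0589). Of the 1806 lower probes 1 was called higher at P21, against 1.37% of all tested probes. Of the 2511 higher probes 2 were called lower at P21, against 3.63% of all tested probes, and 2 at P60, against 14.5%. As few probes were called at P21 at all, such counts could only be small there. ILMN_2819015 was 0.60 higher in knockout at P21 (limma adjusted p = 0.0498), with differences of -0.74 at P30 and -1.81 at P60. ILMN_2948800 and ILMN_2800256 had differences of 0.44 and 0.57 at P30 and of -0.35 and -0.60 at P60. These 3 calls at P30 were lost with only the 4 P30 arrays in the model and with at least 1 array left out.

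Against P15, 1245 probes had a more negative P30 difference (7.17%) and 908 a more positive one (5.23%). ILMN_2703566 changed most, by -7.52, and ILMN_1212921 most in the other direction, by 3.82. From P30 to P60 limma found 0 changed probes, with 1292 at an unadjusted p under 0.05, and 563 without P30 wild type replicate 2. A further growth of the difference after P30 was therefore not settled by these arrays.

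The 2 wild-type arrays at P30 were not equally far from knockout. Wild type replicate 1 differed from the knockout arrays by RMS values of 0.743 and 0.758, and replicate 2 by 0.929 and 0.93. The 1404 probes lower at P60 by at least 2-fold, a list whose differences use no P30 array although its filter and pooled spread do, had a median level of 9.76 in replicate 1 and 10.44 in replicate 2. The P21 and P60 wild-type medians of these probes were 8.47 and 10.56. Replicate 2 was the brighter of the pair in 94.1% of them, against 44.1% of all tested probes. The 905 probes higher at P60 by at least 2-fold had medians of 9.75 and 9.44, between 10.08 at P21 and 9.31 at P60. On both lists replicate 1 thus lay nearer to P21 wild type than replicate 2 did. The knockout arrays had medians of 7.64 and 7.65 on the first list and 10.25 and 10.5 on the second. Each P30 array, of either genotype, was also left out in turn. The counts below do not measure the part of the wild-type gap in the P30 calls. They also include the knockout arrays and the loss of precision with an array fewer. Of the 1109 large falls 1042 (94.0%) remained called whichever single P30 array was left out, and of the 257 large rises 221 (86.0%). Of all 2511 higher probes 803 (32.0%) did, and of all 1806 lower probes 1257 (69.6%).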

How the data were processed

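The members and lists were chosen with earlier results of these data known. Signal intensity per probe was deposited with no background correction or normalization, per the file headers. Each deposited intensity came with a detection p-value. Among regular probes that column increased with brightness (mean correlation 0.866 with the signal rank) and was taken as 1 minus p. Among control rows it decreased. The log2 table deposited by the authors equals quantile-normalized log2 intensities of all 26511 rows to within 0.00276. Limma appears in the submitters' processing notes, with no version. By their identifiers 822 control rows were dropped, 6 of which the gene table names. That table was matched to the RefSeq genes of GRCm38.p6 and named 24272 of 25689 regular probes.

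Probes with a detection p under 0.05 on at least 2 of 16 arrays (17355) were tested with limma 3.58.1 in R 4.3.3. The model had 8 group means, with 8 residual and 3.55 prior degrees of freedom. Benjamini-Hochberg adjusted p-values were used with a threshold of 0.05, and every adjusted p is from this limma model. The script was tested on simulated data. "At least" folds used the lowest level of a detected probe as floor. The number of arrays limits the precision.

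Named probes were the 10 largest called falls and rises, the 5 largest each way among probes detected on all 4 arrays, and the 3 brightest each way among 2-fold calls. Added to these were the 3 largest changes each way between ages, the 3 brightest probes with a difference under 0.1, 5 probes called opposite ways at different ages, and the probes named Fbxo43 and Fbxo5. Alternatives were 2 background corrections, 75th percentile scaling, other filters, only P30 arrays, a replicate block, a variance trend, 1 probe per symbol and each array left out.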

Additional observations from a re-analysis of the deposited data

Results flagged for a closer look

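The genotype difference at P30 was tested directly against that at another age, and probes past the limma threshold are listed here. Against P21, 712 probes had a more negative and 110 a more positive difference at P30. ILMN_1228907, ILMN_1222337 and ILMN_2643786 changed by -5.58, -5.51 and -5.36, and ILMN_2834777, ILMN_2606088 and ILMN_3139952 by 3.18, 2.93 and 2.89. For ILMN_3139952 the limma adjusted p of the change was 0.043, and its knockout arrays stood far apart. Against P15, 1245 probes had a more negative and 908 a more positive difference at P30. ILMN_2703566, ILMN_2657376 and ILMN_1222251 changed by -7.52, -7.43 and -6.94, and ILMN_1212921, ILMN_3036678 and ILMN_1243711 by 3.82, 2.63 and 2.34. All these tests share the P30 arrays, and fitted changes of probes at the floor are no bounds.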

How the results depend on the processing

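The 1806 lower probes, and the 1109 lower by at least 2-fold, stayed within 1.5 times under all alternatives run. The 2511 higher probes became 1061 with only the 4 P30 arrays and 1425 relative to the median difference (added after seeing the data), and ranged from 1033 (without P30 wild type replicate 2) to 2464 with a P30 array left out. The 257 higher by at least 2-fold became 998 with background from the detection p-values and 1000 with background from the control rows and 165 relative to the median difference, and ranged from 241 to 422 (without P30 wild type replicate 1) with a P30 array left out. The 822 changes from P21 to P30 became 453 with the stricter filter (detection on at least 8 arrays). With each array of these ages left out they ranged from 636 to 1258, the highest without P30 wild type replicate 1. The 2153 changes from P15 to P30 ranged from 1397 (without P15 wild type replicate 2) to 2737 (without P30 wild type replicate 1), with 1423 without P30 wild type replicate 2. The 0 changes from P30 to P60 ranged from 0 to 563 (without P30 wild type replicate 2).

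The median difference of 0.117 over all tested probes was 0.263 and 0.266 with the 2 background corrections, 0.0888 with 75th percentile scaling, 0.0467 with no filter and 0.189 with the stricter filter. Of 36 named probes under 8 alternatives each, 270 of 288 values kept their side of the threshold and 13 lost the call. Signs turned in 5 values, none past the threshold. These were ILMN_2894900 (-0.06), ILMN_1254421 (-0.02) and ILMN_1219309 (-0.04) with 75th percentile scaling, and ILMN_1219309 without P30 wild type replicate 1 (-0.08) or P30 Emi2 knockout replicate 1 (-0.01); without P30 wild type replicate 2 it was 0.11. The cause was not tested. Replicate numbers were not taken to pair the arrays in the main fit. Deviations of same-numbered arrays correlated by 0.608 at P21 and 0.218 at P60, and by less at P15 (0.073) and P30 (0.093). At P21 same-numbered arrays thus shared part of their deviations, and the P21 counts given above come from the fit without a block. With the replicate block 2031 probes were lower and 3487 higher at P30. More positive changes went from 110 to 264 against P21 and from 908 to 1442 against P15.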
